A study of Mus musculus with 6 samples.

Results

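The genes described here are 10 markers of the capillary endothelium of the lung: the aerocyte genes Car4, Apln, Kitl, Prx and Fibin, and the general capillary genes Aplnr, Kit, Gpihbp1, Plvap and Cd93. They were chosen by symbol from a table of 55359 genes, each symbol stood on 1 row, and all 10 had enough counts to be tested among 17728 genes. Their RNA was measured by sequencing poly(A) RNA from the whole lung of C57 mouse embryos at stage E18.5, shortly before birth. The groups are 3 lungs labelled Prmt5 knockdown and 3 lungs labelled wild type, and replicates 1 to 3 of each are numbered here in the order of their records, so that a shared number pairs no lungs. The series text describes a knockout of Prmt5 restricted to Dermo1-expressing mesenchyme, Dermo1 being another name of Twist2, while the sample labels and housing notes call it a knockdown. No source used here gives the alleles, the Cre line or the litters, and no treatment is named.

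Lung capillaries are built from a pair of endothelial cell types. Aerocytes are large, thin cells specialised for gas exchange and leukocyte traffic, while general capillary cells regulate vessel tone and serve as stem cells of the capillary bed. Their marker genes include matched ligands and receptors: aerocytes express apelin (Apln) and Kit ligand (Kitl), and general capillary cells express the apelin receptor (Aplnr) and the receptor tyrosine kinase Kit. Both types arise before birth from a common plexus, and the aerocyte fate depends on Vegfa from the alveolar epithelium.

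For 6 of the 10 genes (Apln, Kitl, Prx, Car4, Fibin and Kit) the RefSeq promoter table (GRCm38.p6) held an entry, and the other 4 are Aplnr, Gpihbp1, Plvap and Cd93. Stretches of 200 bases that end 50 bases before the start are shown for the ligand gene Apln (chrX:48034904-48035103, minus strand), the receptor gene Kit (chr5:75574737-75574936, plus strand) and Prx (chr7:27499074-27499273, plus strand), the aerocyte gene with the largest difference below. For Kitl the 30 bases before the start are shown (chr10:100015791-100015820, plus strand). Capitals mark AGGAAG and ACAAAG in Apln, AGGAAG and CACCC in Kit, CACCC in Prx and TATAAA in Kitl, on either strand.
Apln: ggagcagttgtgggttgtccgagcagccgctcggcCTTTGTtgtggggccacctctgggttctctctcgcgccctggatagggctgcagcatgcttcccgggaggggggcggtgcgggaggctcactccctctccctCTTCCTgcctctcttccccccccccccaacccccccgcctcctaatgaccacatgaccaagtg
Kit: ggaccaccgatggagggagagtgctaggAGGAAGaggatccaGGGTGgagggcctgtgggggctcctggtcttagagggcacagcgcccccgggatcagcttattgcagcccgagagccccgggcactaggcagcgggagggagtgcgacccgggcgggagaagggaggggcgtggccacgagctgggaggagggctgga
Prx: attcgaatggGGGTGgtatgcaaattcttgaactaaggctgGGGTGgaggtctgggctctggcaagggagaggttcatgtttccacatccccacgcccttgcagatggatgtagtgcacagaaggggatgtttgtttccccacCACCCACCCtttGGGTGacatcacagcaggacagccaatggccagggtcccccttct
Kitl: agctgTATAAAaagcgctggcggcgcagca
AGGAAG, a form of the ETS motif, was in the 250 bases before the start of Apln and Kit and in 29.5% of 32851 promoter windows of that length. CACCC, a KLF-type motif, matched 5 times in Prx, a pair of these overlapping, and once each in Kit, Car4 and Fibin, and it was in 52% of windows. TATAAA was in Kitl alone of the 6 and in 12.4% of windows. ACAAAG, a SOX-type motif, was in Apln alone and in 16.5% of windows. ACGTG, a form of the hypoxia response core, was in 16.6% of windows and in none of the 6. The other form, GCGTG, was not counted over the windows. It stands in the Kit stretch shown and, on the opposite strand, in the Prx stretch. The windows of Kitl and Kit were the richest in G and C, at 69.2% and 70.8%, with 23 and 17 CpG dinucleotides, against 56.4% and 2 in Prx. These matches describe letters in the window and are not evidence of binding.

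All 10 capillary genes had a lower mean in the knockdown-labelled lungs, and none passed the test over all genes. The mean differences in CPM, counts scaled to a common library size, ran from -41.6% for Aplnr to -2.47% for Gpihbp1. With edgeR 0 of the 10 passed a Benjamini-Hochberg adjusted p of 0.05, beside 0.0338% of all tested genes called in either direction with 0.0282% called lower and 0.00564% higher (adjusted p of 0.0804 to 0.927 for the 10). At an unadjusted p under 0.05 there were 8 lower members of 10, beside 8.52% of all tested genes, and 0 higher members, beside 8.48%. In 7 of 10 every knockdown-labelled library lay below every wild type one, beside 12.4% of all tested genes. The median log2 fold change of the 10 was -0.56, beside 0.015 over all tested genes. DESeq2 called 6 of the 10 lower (Car4, Kitl, Prx, Aplnr, Kit and Cd93), beside 2.5% of the genes it adjusted, and limma on log2(FPKM + 1) called 0, beside 0.033% of the genes it tested called lower.

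**Figure D1:**
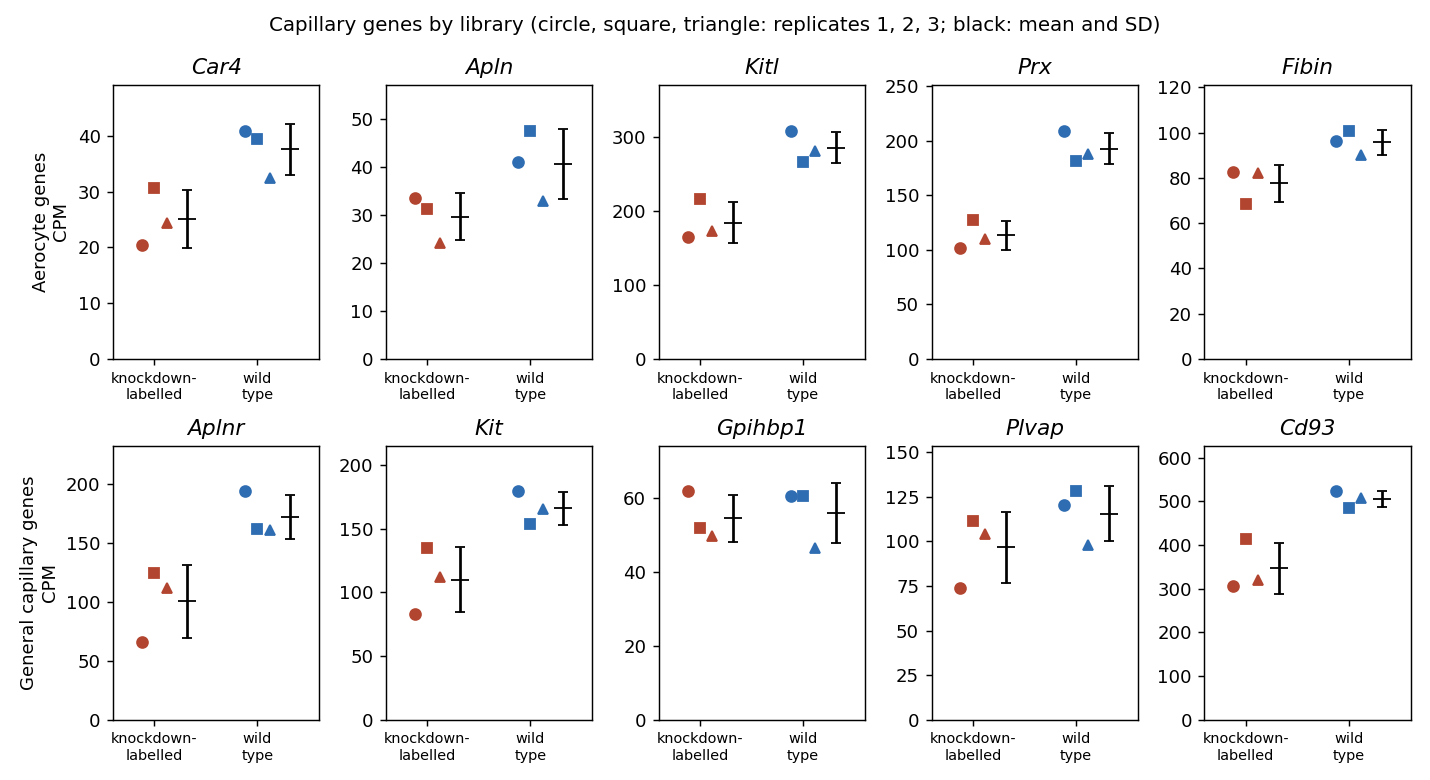
CPM of the 5 aerocyte genes (upper row) and the 5 general capillary genes (lower row) in each library, with the knockdown-labelled lungs left of the wild type lungs. Symbols are replicates 1 (circle), 2 (square) and 3 (triangle), and black marks give the mean and SD of 3 libraries. The groups are apart in 7 panels and overlap for Apln, Gpihbp1 and Plvap.

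The libraries differed in ways that bear on these values. Prmt5 itself, averaged over the whole organ, stood at 44.7 ± 4.49 CPM in knockdown-labelled and 47.4 ± 0.777 CPM in wild type lungs (SD, n = 3 each; edgeR adjusted p = 0.682), so every direction here rests on the labels. Twist2 stood at 1.152 ± 0.296 against 2.57 ± 0.515 CPM (edgeR adjusted p = 0.163). Xist and Ddx3y put 1 female and 2 male embryos in the knockdown-labelled group and 2 females and 1 male in the wild type group. The 12 listed heart muscle genes, such as Myl2 and Tnni3, summed to 3363 to 12531 CPM in knockdown-labelled lungs and to 506 to 2963 CPM in wild type lungs, with the highest level in knockdown-labelled replicate 2. Their mean log2 CPM was 7.44, 9.36 and 7.24 in knockdown-labelled replicates 1 to 3, against 3.82, 4.55 and 6.90 in wild type replicates 1 to 3. The groups do not overlap in this level, so the covariate fit given below cannot separate it from the label. The part of heart tissue in the capillary values was not tested. Alveolar type 1 cell genes, of the epithelium beside the aerocytes, summed to 3382 to 4283 CPM in knockdown-labelled lungs and to 5279 to 5922 CPM in wild type lungs, and their part in the capillary values was not tested. In whole-lung RNA, fewer capillary cells and less RNA per capillary cell cannot be told apart.

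Of the ligands, Kitl was clearly separated between the groups and Apln was not. Kitl (ENSMUSG00000019966, chromosome 10, 99851492 to 99936278, plus strand) encodes stem cell factor, the ligand of Kit; positions of genes here and below are those of the deposited table, which names no build. It had 164, 215 and 173 CPM in knockdown-labelled replicates 1 to 3, against 308, 266 and 281 CPM in wild type replicates 1 to 3. The highest knockdown-labelled library lay below the lowest wild type one. The mean was 184 ± 27.4 CPM in knockdown-labelled and 285 ± 21.3 CPM in wild type lungs (n = 3 each, SD), and the log2 fold change was -0.63 (standard error 0.12; edgeR adjusted p = 0.116). With 1 library left out it ranged from -0.76 to -0.55.

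Apln (ENSMUSG00000037010, X chromosome, 47114023 to 47123730, minus strand) encodes the precursor of apelin, a peptide that acts on vessel tone and sprouting. It had 33.6, 31.1 and 24.2 CPM in the knockdown-labelled lungs, against 41.1, 47.5 and 32.9 CPM in the wild type lungs. The groups overlapped: knockdown-labelled replicate 1 lay above wild type replicate 3. The mean was 29.6 ± 4.88 CPM in knockdown-labelled and 40.5 ± 7.31 CPM in wild type lungs (n = 3 each, SD), and the log2 fold change was -0.45 with a 95% interval of -0.85 to -0.05 (edgeR adjusted p = 0.255). Because Apln is X-linked, the sex of the embryos was also entered: the log2 fold change was then -0.44 (edgeR adjusted p = 0.371). The value in the male wild type embryo, replicate 1, lay between those of the 2 female ones.

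Both receptor genes were lower in every knockdown-labelled library than in any wild type one, with knockdown-labelled replicate 1 the lowest. Aplnr (ENSMUSG00000044338, chromosome 2, 84966569 to 84970267, plus strand), the G protein-coupled receptor of apelin, had 65.5, 124 and 111 CPM in the knockdown-labelled lungs, against 193, 161 and 161 CPM in the wild type lungs. Its means of 100.3 ± 30.8 and 172 ± 18.7 CPM (SD, n = 3 each) gave a log2 fold change of -0.78 with a standard error of 0.23 (edgeR adjusted p = 0.189). This was the largest difference among the 10, and without knockdown-labelled replicate 1 it was -0.54. Kit (ENSMUSG00000005672, chromosome 5, 75735576 to 75817382, plus strand), a receptor tyrosine kinase of endothelial, mast and progenitor cells, had 83.4, 135 and 112 CPM in the knockdown-labelled lungs, against 179, 153 and 165 CPM in the wild type lungs. The log2 fold change, -0.59, had a standard error of 0.17 (edgeR adjusted p = 0.180). Without knockdown-labelled replicate 1 it was -0.42.

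The balance of ligand to receptor was then taken within each library, from FPKM, counts per length of exon and per total of the library, where library scaling cancels. The ratio of Apln to Aplnr was 0.602, 0.295 and 0.255 in knockdown-labelled replicates 1 to 3, against 0.250, 0.346 and 0.240 in wild type replicates 1 to 3. Receptor RNA exceeded ligand RNA in all 6 lungs, and knockdown-labelled replicate 1 was the highest, apart from the other 5. On the log2 scale the group difference was 0.37 (exact permutation test, two-sided, p = 0.5), and without that library it was -0.0038. The ratio of Kitl to Kit was 2.97, 2.41 and 2.33 in the knockdown-labelled lungs, against 2.59, 2.62 and 2.57 in the wild type lungs. Here ligand RNA exceeded receptor RNA in all 6 lungs, and the wild type values lay within a narrow band inside the knockdown-labelled range. The group difference was -0.021 on the log2 scale (exact permutation test, two-sided, p = 1, where 0.1 is the smallest it can give), and -0.13 without knockdown-labelled replicate 1 (exact permutation p = 0.1).

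**Figure D2:**
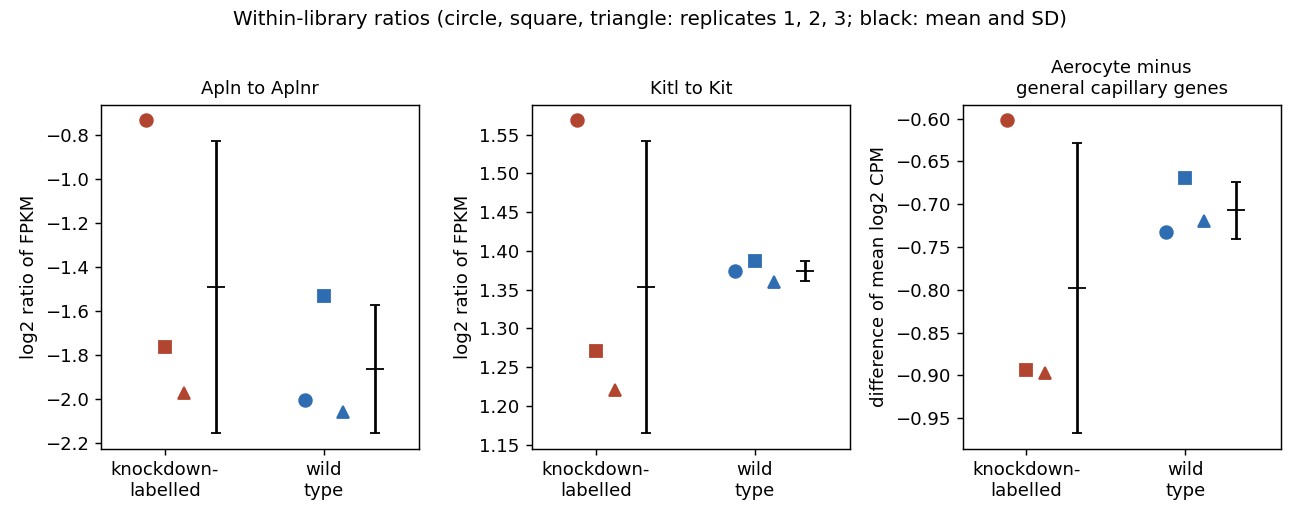
Within-library values for the 3 knockdown-labelled and 3 wild type lungs: the log2 ratio of Apln to Aplnr FPKM, the log2 ratio of Kitl to Kit FPKM, and the mean log2 CPM of the aerocyte genes minus that of the general capillary genes. Symbols are replicates 1 to 3 and black marks give mean and SD. Knockdown-labelled replicate 1 (circle) is the highest of the 6 lungs in each panel.

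The other aerocyte genes were lower as well, Prx by the most and Fibin by the least. Prx (ENSMUSG00000053198, chromosome 7, 27196813 to 27219639, plus strand) encodes periaxin, a scaffold protein best known from myelinating Schwann cells. It had 101.8, 128 and 110.2 CPM in the knockdown-labelled lungs, against 209, 181 and 188 CPM in the wild type lungs. No knockdown-labelled library came near a wild type one. The mean was 113 ± 13.1 CPM in knockdown-labelled and 193 ± 14.6 CPM in wild type lungs (n = 3 each, SD), and the log2 fold change was -0.77 (standard error 0.10; edgeR adjusted p = 0.0804). This was the smallest p of the 10 genes. Without a filter on low counts Prx passed (edgeR adjusted p = 0.0178), where 0.15% of 32572 tested genes were called lower. Over all alternatives its adjusted p ranged from 4.24e-08 (DESeq2) to 0.708 (edgeR with the heart muscle covariate).

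Car4 (ENSMUSG00000000805, chromosome 11, 84848612 to 84856870, plus strand) encodes carbonic anhydrase 4, an enzyme anchored to the capillary surface that interconverts carbon dioxide and bicarbonate. It had 20.4, 30.7 and 24.3 CPM in the knockdown-labelled lungs, against 40.9, 39.3 and 32.4 CPM in the wild type lungs. The groups did not overlap, but knockdown-labelled replicate 2 and wild type replicate 3 lay close together. The log2 fold change, -0.58, had a standard error of 0.16 (edgeR adjusted p = 0.180), and it was -0.75 without knockdown-labelled replicate 2. Fibin (ENSMUSG00000074971, chromosome 2, 110191262 to 110193528, minus strand), a secreted factor named after its role in the zebrafish fin bud, had 82.7, 68.3 and 82.1 CPM in the knockdown-labelled lungs, against 96.2, 100.9 and 90.1 CPM in the wild type lungs. The groups did not overlap, and knockdown-labelled replicate 2, the highest of its group for Car4, Kitl and Prx, was the lowest of its group for Fibin. The log2 fold change, -0.30, had a standard error of 0.10 (edgeR adjusted p = 0.209).

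Among the other general capillary genes Cd93 was lower without overlap, Plvap overlapped, and Gpihbp1 stood at like levels in both groups. Cd93 (ENSMUSG00000027435, chromosome 2, 148278560 to 148285483, minus strand), a C-type lectin-like surface protein of endothelial cells, had 307, 413 and 319 CPM in the knockdown-labelled lungs, against 523, 485 and 508 CPM in the wild type lungs. The log2 fold change, -0.54, had a standard error of 0.12 (edgeR adjusted p = 0.143). Mmrn2, which encodes the matrix protein that binds Cd93, stood at 37.6 and 39.5 CPM on average (edgeR adjusted p = 0.747). Plvap (ENSMUSG00000034845, chromosome 8, 71950409 to 71964396, minus strand) forms the diaphragms of endothelial caveolae and fenestrae. It had 74.0, 111.6 and 104.3 CPM in the knockdown-labelled lungs, against 120.5, 128 and 98.2 CPM in the wild type lungs. Knockdown-labelled replicates 2 and 3 lay above wild type replicate 3, and the log2 fold change was -0.26 with a 95% interval of -0.66 to 0.15 (edgeR adjusted p = 0.495).

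Gpihbp1 (ENSMUSG00000022579, chromosome 15, 75468477 to 75471330, plus strand) binds lipoprotein lipase and carries it to the capillary lumen. It had 61.8, 51.9 and 49.9 CPM in the knockdown-labelled lungs, against 60.6, 60.6 and 46.5 CPM in the wild type lungs. The highest and the second lowest of the 6 values were both knockdown-labelled, and the log2 fold change was -0.036 with a 95% interval of -0.35 to 0.28 (edgeR adjusted p = 0.927). It was the single one of the 10 whose sign turned when a library was left out (0.024 to 0.026 in 3 of 6 such fits). Its partner Lpl, the lipoprotein lipase gene, stood at 246, 295 and 203 CPM in the knockdown-labelled lungs, against 102.4, 133 and 129.9 CPM in the wild type lungs. Every knockdown-labelled value was above every wild type one, with the highest in knockdown-labelled replicate 2 (log2 fold change 1.02, edgeR adjusted p = 0.0941). That lung also had the highest heart muscle level, and the part of heart tissue in the Lpl values was not tested. Fabp4, a fatty acid carrier of capillary endothelium and fat cells, stood at 49.8 ± 14.2 against 18.6 ± 5.71 CPM (edgeR adjusted p = 0.119). Of 12 genes of this lipolysis pathway 8 were tested and 0 passed edgeR's adjusted threshold, with 2 (Lpl and Fabp4) higher and 0 lower by unadjusted p and a median log2 fold change of 0.11. The fatty acid receptor gene Cd36 stood at 368 against 378 CPM (edgeR adjusted p = 0.892).

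The 2 gene groups were set against each other. The aerocyte genes had a median log2 fold change of -0.58 and the general capillary genes one of -0.54. This order turned with the heart muscle covariate (-0.60 and -0.75), without wild type replicate 1 (-0.51 and -0.52) and without wild type replicate 2 (-0.55 and -0.57). All 5 aerocyte genes were lower at an unadjusted p under 0.05 in edgeR, and 3 of the 5 general capillary genes were (Aplnr, Kit and Cd93). Over all tested genes that share was 8.52%. Groups did not overlap for 4 of 5 aerocyte genes and for 3 of 5 general capillary genes, all lower, beside 12.4% of all tested genes. Within each library, mean log2 CPM of the aerocyte genes minus that of the general capillary genes was -0.60, -0.89 and -0.90 in knockdown-labelled replicates 1 to 3, against -0.73, -0.67 and -0.72 in wild type replicates 1 to 3. The wild type values lay inside the knockdown-labelled range. The group means differed by -0.091, less than the knockdown-labelled SD of 0.17, and by -0.19 without knockdown-labelled replicate 1.

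Knockdown-labelled replicate 1 had the lowest value of the 6 lungs for 7 of the 10 genes: Car4, Kitl, Prx, Aplnr, Kit, Plvap and Cd93. For the same genes knockdown-labelled replicate 2, the female of that group and the lung with the highest heart muscle level, was the highest of the knockdown-labelled lungs. Apln, Fibin and Gpihbp1 ordered the knockdown-labelled lungs differently, with replicate 1 the highest. Wild type replicate 1 was the highest of the 6 lungs for 6 genes.

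Per length of transcript, Cd93 had the highest mean of the 10 and Apln the lowest in both groups. In FPKM, Cd93 averaged 51.8 ± 7.84 in knockdown-labelled and 75.1 ± 3.11 in wild type lungs, and Apln 9.41 ± 1.498 and 12.8 ± 2.18 (SD, n = 3 each). In the knockdown-labelled lungs the order below Cd93 was Plvap (48.6), Fibin (34.3), Kitl (31.1), Aplnr (27.1), Gpihbp1 (21.4), Prx (20.0), Car4 (12.8) and Kit (12.3). There the ranges of neighbours overlapped except between Plvap and Fibin and between Prx and Car4. In the wild type lungs the order was Plvap (57.7), Kitl (47.9), Aplnr (46.1), Fibin (41.9), Prx (33.8), Gpihbp1 (21.7), Car4 (18.9) and Kit (18.48). Neighbours were apart there between Cd93 and Plvap, Fibin and Prx, Prx and Gpihbp1, and Kit and Apln. By mean, Fibin stood above Kitl and Aplnr, and Gpihbp1 above Prx, in the knockdown-labelled lungs alone.

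Other genes of the capillary endothelium were lower on average too. All 15 pan-endothelial genes, among them Tie1 and Icam2, had negative log2 fold changes (47.1% of all tested genes did), with a median of -0.41. Of these 0 passed edgeR's adjusted threshold and 11 were lower at an unadjusted p under 0.05, beside 8.52% of all tested genes. The same shares over all tested genes stand beside the counts of the other gene lists. Their summed level was 2319 to 2848 CPM in knockdown-labelled lungs and 3145 to 3615 CPM in wild type lungs, without overlap. Of 11 further aerocyte genes 10 were tested, 9 were negative and 6 had an unadjusted p under 0.05, with a median of -0.34 and 0 past the adjusted threshold. Ednrb, the endothelin receptor that aerocytes carry, stood at 150.2 ± 14.3 against 204 ± 7.49 CPM. The transcription factor gene Tbx2, also a gene of lung mesenchyme, stood at 425 ± 25.6 against 572 ± 61.0 CPM. Emp2, also a gene of alveolar type 1 cells, stood at 785 ± 95.5 against 1114 ± 84.1 CPM. Sirpa and Chst1 of that list stood at 77.1 against 70.6 CPM and 12.6 against 12.7 CPM.

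Of 12 further general capillary genes 9 were negative, 6 had an unadjusted p under 0.05, all lower, and 0 passed edgeR's adjusted threshold, with a median of -0.26. Tmem100, a target of endothelial BMP signalling, stood at 55.5 ± 7.62 against 80.8 ± 3.997 CPM, Tek, the angiopoietin receptor gene, at 104 ± 11.4 against 136 ± 4.99 CPM, and Npr1, the natriuretic peptide receptor gene, at 124 ± 4.63 against 155 ± 11.8 CPM. Glp1r stood at 95.9 against 94.3 CPM and Cd300lg at 5.45 against 2.63 CPM (edgeR adjusted p = 0.349).

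The members were therefore also set against the endothelium itself, by scaling each library to its summed counts of the 15 pan-endothelial genes. Those genes were themselves lower in the knockdown-labelled lungs, so the median log2 fold change of all tested genes moved to 0.44 under this scaling. The median of the aerocyte genes was then -0.16 and that of the general capillary genes -0.13, and 7 of the 10 were negative, beside 5.51% of all tested genes. Prx stood at 42.6, 44.8 and 47.5 counts per 1000 endothelial counts in the knockdown-labelled lungs, against 57.8, 54.1 and 59.7 in the wild type lungs. The groups did not overlap, and Prx was the single member to pass (log2 fold change -0.35, unadjusted p = 0.0111, edgeR adjusted p = 0.0447, beside 0.152% of all tested genes called lower). That adjusted p comes from a fit that called 5290 genes, 29.8% of those tested, and the unadjusted p was 0.000143 with scaling to all genes. Kitl and Aplnr also stayed below the wild type values in every knockdown-labelled library, with log2 fold changes of -0.22 and -0.36 (edgeR adjusted p = 0.136 and 0.147). Gpihbp1 lay on the other side: it had 25.9, 18.2 and 21.5 counts per 1000 endothelial counts in the knockdown-labelled lungs, against 16.8, 18.1 and 14.8 in the wild type lungs. All of its knockdown-labelled values were higher than the wild type ones, with a log2 fold change of 0.40 and a 95% interval of 0.050 to 0.75 (edgeR adjusted p = 0.0694). The intervals of the other 8 genes, Kitl and Aplnr among them, included 0, and the log2 fold change of Apln was -0.024 with an interval of -0.40 to 0.35.

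**Figure D3:**
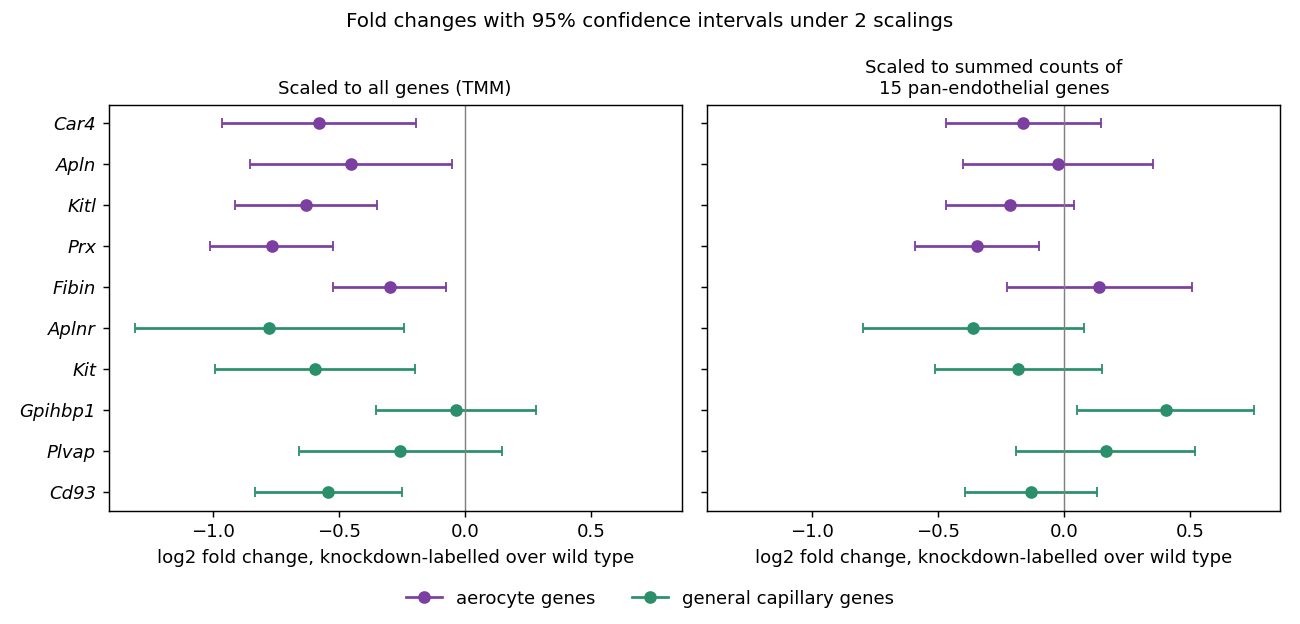
Log2 fold changes of the 10 genes, knockdown-labelled over wild type, with 95% confidence intervals (n = 3 each), scaled to all genes (left) and to the summed counts of 15 pan-endothelial genes (right). On the left all points lie below 0 and 8 intervals exclude it. On the right the intervals of Prx and Gpihbp1 alone exclude 0, on opposite sides.

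For the genes around the ligand and receptor pairs, the median differences lay nearer 0. Of 16 further genes of apelin signalling 0 passed edgeR's adjusted threshold, 3 were lower and 2 higher by unadjusted p, and the median was -0.064. Arrb1, a beta-arrestin gene, stood at 236 ± 21.0 against 334 ± 36.5 CPM and the inhibitory G protein gene Gnai1 at 44.7 ± 3.02 against 57.2 ± 3.40 CPM. Apela, which encodes the other ligand of Aplnr, stood at 2.14 against 0.7996 CPM, with 7 to 48 counts per library. Nos3, the endothelial nitric oxide synthase gene, stood at 32.4 against 35.3 CPM with overlapping groups. Of 20 genes of Kit signalling 17 were negative, beside 47.1% of all tested genes, with a median of -0.13. Of these 20 genes 6 were lower at an unadjusted p under 0.05, beside 8.52% of all tested genes, and 0 passed the adjusted threshold. The kinase genes Lyn and Src stood at 62.3 ± 5.53 against 79.8 ± 7.59 CPM and at 99.0 ± 5.99 against 121 ± 7.75 CPM. Adam17, a sheddase that releases soluble Kit ligand, stood at 95.8 against 107.7 CPM with overlapping groups.

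Several members are not restricted to capillaries, so markers of other cells were measured beside them. Kit also marks mast cells: of 9 listed genes 7 were tested, 5 with positive and 2 with negative log2 fold changes. By unadjusted p 3 were higher and 2 lower, with 0 past edgeR's adjusted threshold and a median of 1.26. The summed level of that list was 153 to 230 CPM in knockdown-labelled and 199 to 254 CPM in wild type lungs. The mast cell protease gene Cpa3 stood at 18.7 ± 11.2 against 6.84 ± 1.49 CPM, with every knockdown-labelled value above every wild type one. The 2 negative genes, the histamine synthesis gene Hdc and the transcription factor gene Gata2, make up most of that sum. They stood at 84.9 ± 21.8 against 130.8 ± 27.1 CPM and at 63.5 ± 14.2 against 83.5 ± 9.35 CPM, both with overlapping groups. The IgE receptor gene Fcer1a was near 0 in both groups (0.122 against 0.137 CPM). Progenitor and megakaryocyte genes, which share Kit, had a median of -0.28 with 1 of 8 lower at an unadjusted p under 0.05, Cd34, which endothelial cells express too (255 ± 46.7 against 349 ± 23.0 CPM). Their summed level was 287 to 400.2 against 376 to 431 CPM, with means of 329 and 408 CPM, and Cd34 made up most of it. Prx and Pmp22 are also Schwann cell genes: of the 8 Schwann cell genes 7 were positive, 0 had an unadjusted p under 0.05, the median was 0.29 and the summed level was 191 to 266 against 229 to 274 CPM.

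Heart capillaries and endocardium express several general capillary genes. With edgeR 9 of 12 heart muscle genes were higher at an unadjusted p under 0.05, with a median of 2.26 and 0 past the adjusted threshold. Of 8 genes of endocardium and coronary endothelium 1 was higher (Fabp4) and 2 were lower (Hapln1 and Meox2) by unadjusted p, with 0 past the adjusted threshold, a median of -0.11 and a summed level of 550 to 625 against 599 to 674 CPM. With the heart muscle level as a covariate 9 of the 10 members were negative, beside 48.6% of all tested genes. The covariate was higher in every knockdown-labelled lung than in any wild type one, so this fit cannot separate it from the label. Kitl, Prx, Aplnr, Kit and Cd93 then had log2 fold changes of -0.77, -0.84, -0.88, -0.79 and -0.75, Car4 one of -0.60, Apln one of -0.26, Fibin one of -0.094 and Plvap one of -0.20. That of Gpihbp1 was 0.27, with a 95% interval of -0.18 to 0.71. Of the 10 genes 0 passed in that fit, beside 0.00564% of all tested genes called lower (edgeR adjusted p of 0.708 to 0.904), and 4 were lower at an unadjusted p under 0.05 (Kitl, Prx, Kit and Cd93), beside 3.71% of all tested genes. Erythroid genes, a measure of blood content, had a median of 0.070 and a summed level of 3268 to 3558 against 3210 to 3783 CPM, with 0 of 8 tested genes at an unadjusted p under 0.05.

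**Figure D4:**
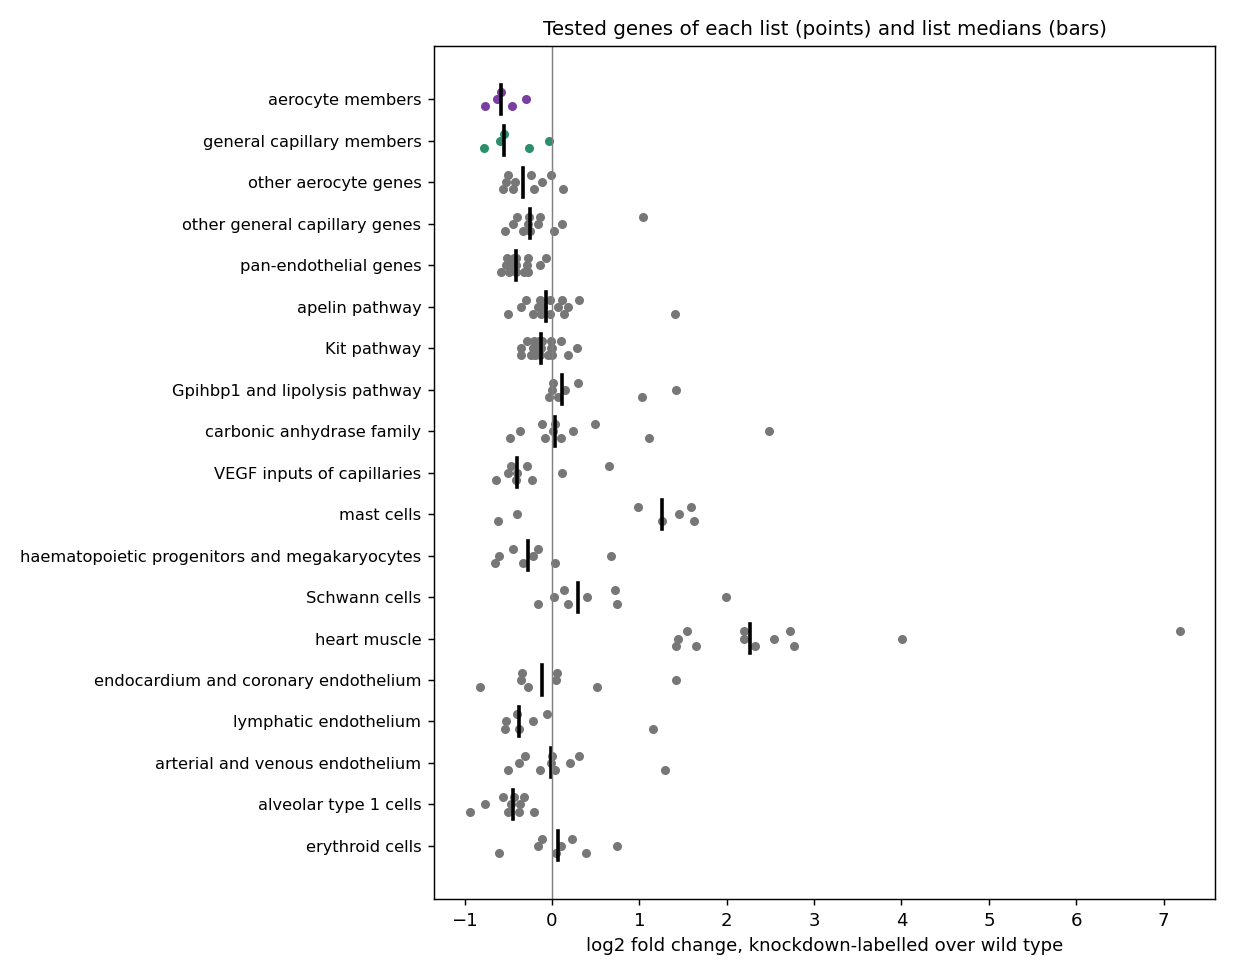
Log2 fold changes, knockdown-labelled over wild type, of every tested gene of each list (points), with the list median as a bar. The aerocyte and general capillary members, in colour, lie below 0 with the pan-endothelial and alveolar type 1 genes, while the heart muscle genes lie above 0.

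The genes whose level followed the members most closely over the 6 lungs were picked by the smallest root mean square difference of centred log2 CPM from the mean profile of each group. For the aerocyte profile these were Sh3tc1, Pde5a, Scnn1b, Raver2 and the long noncoding RNA gene Fendrr, at differences of 0.026 to 0.043. The aerocyte genes themselves lay at 0.105 (Kitl) to 0.200 (Fibin) from their own mean. For the general capillary profile they were the homeobox gene Hoxa5, Kcnq5, B3gnt3, Lrrc8b and Nova2, at 0.037 to 0.055, while Cd93 lay at 0.104 and Gpihbp1 at 0.319 from their own mean. Pde5a, the cGMP phosphodiesterase gene, stood at 282 ± 20.3 against 404 ± 24.0 CPM and Hoxa5 at 53.5 ± 8.71 against 73.7 ± 7.24 CPM. All 10 of these genes were chosen by likeness of level, so their differences between the groups are not further evidence.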

How the data were processed

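Poly(A) RNA-seq of whole lungs was available for 6 embryos, grouped by the genotype label into 3 knockdown-labelled and 3 wild type libraries. The deposited table gives raw counts per gene, and, per the file headers, the FPKM and exonic length of each gene. The deposited FPKM values were recomputed from counts, totals and lengths and matched within 0.005. Per the submitters' processing notes, the tools were HISAT2 2.0.1, HTSeq 0.6.1 and cutadapt 1.9.1. No source used here gives the genome build or the strand setting, so the table's coordinates are printed as given, and reads of overlapping antisense genes cannot be told apart.

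Counts of 17728 of 55359 genes passed filterByExpr and were tested with edgeR 4.0.16 in R 4.3.3 (TMM, quasi-likelihood, group as the single term, two-sided, Benjamini-Hochberg over all tested genes, threshold 0.05). Standard errors were derived from the fold change and the F statistic, and intervals are at 95%. CPM are counts scaled by TMM library size. Per-library log2 CPM use a prior count of 2. Ligand to receptor ratios were compared by an exact permutation test, two-sided, with a smallest possible p of 0.1. Alternatives used DESeq2 1.42.0, limma 3.58.1, other scalings and filters, covariates and left-out libraries. The fits were tested on simulated counts with 200 changed genes. The common biological coefficient of variation was 21.8%. Totals ran from 14383415 to 19262837 counts, where 3 counts are 0.154 to 0.212 CPM.

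The members and the gene lists (197 of 198 symbols found, and Fabp4, Flt4 and Pdpn on more than 1 list) were chosen with earlier results of these data known. Named genes are the members, Prmt5, Twist2, Xist and Ddx3y, up to 4 genes with the smallest p per list, named partners of members (Lpl, Apela, Vegfa, Ednrb, Nos3, Adam17), and the 5 genes per member group with the nearest profile. Sirpa, Chst1, Kdr, Glp1r, Cd300lg, Mmrn2, Cd36, Fcer1a, Gata2, Pmp22, Vegfd and Car6 lie outside this rule and were picked with their values known. Some genes that the rule names are not reported here. The labels do not say whether embryos came from separate litters, so p-values rest on the spread among these lungs, some of which may be technical.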

Additional observations from a re-analysis of the deposited data

How the results depend on the processing

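Over all tested genes edgeR called 6. That count was 81 without a filter on low counts, 2 with a mean FPKM of at least 5, 813 with DESeq2, 3 with limma on log2(FPKM + 0.1), 0 with embryo sex as a covariate, 1 with the heart muscle level as a covariate and 5290 with endothelial scaling, and 0 to 17 with 1 library left out. Of the 10 members 0 were called, against 1 without a filter, 6 with DESeq2 and 1 with endothelial scaling. The aerocyte median of -0.58 was -0.16 with endothelial scaling and -0.75 (without knockdown-labelled replicate 2) to -0.51 with 1 library left out. The general capillary median of -0.54 was -0.13 with endothelial scaling, -0.75 with the heart muscle covariate, and -0.69 to -0.42 with 1 library left out. Signs turned for Gpihbp1 (0.27 with the heart muscle covariate, 0.40 with endothelial scaling, and -0.15 to 0.026 with 1 library left out), and with endothelial scaling for Fibin (0.14) and Plvap (0.17). The log2 ratio of Apln to Aplnr differed by -0.0038 to 0.62 with 1 library left out, and that of Kitl to Kit by -0.13 to 0.046, and by 0.039 with the heart muscle covariate. The cause of these changes was not tested. Car4, Apln, Kitl, Prx, Aplnr, Kit and Cd93 were negative in all 17 alternatives, Apln at only -0.024 with endothelial scaling. With 3 libraries a group, differences smaller than the intervals given could not be resolved. No paired analysis was possible because the sample titles of the groups share no number, and the replicate numbers used here are only names.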

Other observations

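Of 9 listed genes of VEGF ligands and their receptors 7 had negative and 2 positive log2 fold changes. The 2 positive ones were ligand genes, and every receptor or co-receptor gene on the list was negative. Of the 9 genes 0 passed edgeR's adjusted threshold, 5 were lower and 1 higher at an unadjusted p under 0.05, and the median log2 fold change was -0.40. Kdr, a Vegfa receptor gene counted with the further aerocyte genes, stood at 281 ± 44.7 against 414 ± 51.1 CPM, without overlap (edgeR adjusted p = 0.155). Vegfa, the epithelial signal on which aerocytes depend, stood at 1214, 1015 and 802 CPM in the knockdown-labelled lungs, against 1336, 1243 and 1131 CPM in the wild type lungs, with overlapping groups (edgeR adjusted p = 0.397). Vegfc and Vegfd, ligands of lymphatic and blood endothelium, stood at 11.4 ± 0.889 against 16.2 ± 0.295 CPM and at 67.7 ± 17.0 against 105.5 ± 10.1 CPM. Vegfb, a ligand of Flt1 abundant in heart and muscle, stood at 46.4 ± 9.67 against 29.5 ± 3.18 CPM (SD, n = 3 each; edgeR adjusted p = 0.153). The alveolar type 1 genes, the epithelial neighbours of the aerocytes, were negative in 10 of 10 with a median of -0.45, 7 of them at an unadjusted p under 0.05 and 0 past the adjusted threshold; Ager stood at 945 ± 83.9 against 1393 ± 120.5 CPM. Lymphatic genes (7 tested) had a median of -0.37 with 3 lower and 1 higher at an unadjusted p under 0.05. The higher one was Prox1, at 26.3 ± 10.8 against 11.8 ± 3.85 CPM, without overlap (edgeR adjusted p = 0.185). Arterial and venous genes (10 tested) had a median of -0.0070 with 3 lower and 2 higher at an unadjusted p under 0.05. In both lists 0 genes passed the adjusted threshold.

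Car4 belongs to a family of carbonic anhydrases. Of 15 other family members 11 were tested, 0 passed edgeR's adjusted threshold, 1 was lower and 2 were higher at an unadjusted p under 0.05, and the median was 0.038. Car2, a cytosolic enzyme, stood at 127 ± 8.62 against 178 ± 12.1 CPM, without overlap (edgeR adjusted p = 0.104). Car14 stood at 14.2 ± 7.63 against 6.56 ± 2.43 CPM, with overlapping groups and the highest value in knockdown-labelled replicate 2 (edgeR adjusted p = 0.255). Car6, chosen after its values were seen, had 2, 2 and 932 counts in knockdown-labelled replicates 1 to 3 and 0 in every wild type library, and was not tested because of the filter on low counts.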
